A study of Mus musculus with 8 samples.

Results

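Serpins and the genes of plasminogen activation were followed in mammary tumors treated with calcipotriol or with EtOH. Members were the protein-coding genes named Serpin with a clade letter, a number and an optional letter, except Serping1, together with Plau, Plaur, Plat and Plg. This gave 64 genes (60 serpins and 4 plasminogen activation genes) of the 55414 mouse gene identifiers in the count table. The rule reads gene names and types and no measured value, but it was set with earlier results of these data known. Serpina3h and Serpinb10 carry the same kind of name but are not protein-coding in GENCODE M21, the annotation used here for symbols and positions (build GRCm38), so they were left out.

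All 8 tumors were grown from the PyMt cell line, established from a tumor of an MMTV-PyMt mouse (C57BL/6 background), a transgenic in which the mouse mammary tumor virus promoter drives the polyoma middle T oncogene in mammary epithelium. The cells were implanted into the mammary fat pad of WT female C57BL/6 mice. Recipients were 6 to 8 weeks old in the growth experiment of the same design, and no age is stated for the RNA-Seq tumors. In the calcipotriol group (4 tumors, replicates 1, 5, 6 and 7), 20 nmol of calcipotriol, a vitamin D analog, was applied on the skin over the tumor every 2 days from 2 days after implantation. The EtOH group (4 tumors, replicates 1 to 4) received the ethanol solvent, in which calcipotriol was also dissolved. RNA-Seq was done on tumors collected 24 hours after the final application, with 1 library per tumor. The study's methods describe implanted cells that carry either a nonsense control guide RNA or an Il20rb guide RNA, and the labels name no guide for these tumors. The titles call all 8 tumors WT. The labels give the cell type as epithelial, while the RNA was that of whole tumors. The epithelial keratins Krt8 and Krt18 were abundant in every tumor, but Epcam was at 0 CPM in EtOH replicates 1 and 2.

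Serpins are a protein family named after serine protease inhibitors. An inhibitory serpin presents a loop that the protease cuts, and it then traps the protease in a complex that does not dissociate. Plasminogen is a plasma protein made mainly in the liver. Urokinase (Plau), which acts at the cell surface bound to its receptor (Plaur), and tissue-type activator (Plat) convert it to plasmin, which dissolves fibrin and helps to degrade extracellular matrix. Protease nexin-1 (Serpine2) and PAI-2 (Serpinb2) are among the inhibitors of the activators, and α2-antiplasmin (Serpinf2) inhibits plasmin. The urokinase system has long been studied in breast cancer because of its link with invasion. Some serpins inhibit no protease, among them the collagen chaperone HSP47 (Serpinh1) and pigment epithelium-derived factor (Serpinf1).

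Library totals ranged from 19685419 to 25084713 counts. Reads of the members made up 0.226% to 0.287% of a library in the EtOH group and 0.196% to 0.263% in the calcipotriol group. The tumors of a group were not equally alike. Over all genes tested, the median absolute difference in log2 CPM (a count scaled to a common library size after TMM normalization) was 0.259 between EtOH replicates 1 and 2 and 0.230 between EtOH replicates 3 and 4, but 0.389 to 0.446 between a tumor of the former pair and a tumor of the latter. Calcipotriol replicate 1 differed from the other calcipotriol-treated tumors by 0.316 to 0.396, while these differed from each other by 0.224 to 0.318. The labels tie no EtOH-treated tumors to a shared mouse, cage or batch. Adipocyte markers summed to 0.195 and 0 CPM in EtOH replicates 1 and 2 and to 19.8 and 23.9 CPM in EtOH replicates 3 and 4. Other lists split these pairs too. Skeletal muscle markers summed to 0.584 and 0.925 CPM against 29.3 and 30.5 CPM, and mast cell markers to 19.3 and 22.4 CPM against 55.5 and 56.0 CPM. Neutrophil markers went the other way, at 86.8 and 95.5 CPM against 30.4 and 28.2 CPM, as did endothelial markers, at 278 and 312 CPM against 142 and 140 CPM. Between the treatments, the 6 endothelial markers (Cdh5 the most abundant) summed to 140 to 312 CPM with EtOH and 55.4 to 108 CPM with calcipotriol, with 3 called lower, and the 6 erythroid markers (Hbb-bs the most abundant) to 3457 to 5836 CPM and 434 to 820 CPM, with 5 called lower. The part of these cells in the members' levels was not tested. Fits without the EtOH pairs or without single tumors are given below where they make or end a call or move a value far.

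Of the 64 members, 21 passed the filter on low counts and entered the quasi-likelihood test of edgeR, which was fitted on all 14458 genes that passed it. Of these 21, 20 are reported here. Values from the test are given below with a standard error (SE) and a p adjusted over all these genes. Serpine2 was the only one of the 20 past both thresholds (a change of 1 or more on the log2 scale, in either direction, and a p under 0.05 after Benjamini-Hochberg adjustment), and it was higher with calcipotriol. Of all genes tested, 1.07% were higher and 0.948% were lower past both thresholds (2.02% in either direction), so 1 of 20 is not a count that sets the members apart. Serpinh1, which was lower, passed the adjusted p alone, and so did Serpine2. Among all genes tested 2.74% passed it, with 1.37% of all genes higher and 1.37% lower. Of the 20 members, 15 had a log2 fold change above 0 and 5 below 0, with a median of 0.57 against 0.02 over all genes tested. A gene with few reads can enter the test through the group in which it is higher, so these signs and this median are not those of all 64 members. In 4 of the 20 all tumors of the calcipotriol group were above all tumors of the EtOH group (Serpine2, Serpinb2, Serpina3g and Serpina3k), where 6.32% of all genes tested were so. In 2 of the 20 they were all below (Serpinh1 and Serpinf1), where 6.16% of all genes tested were so. Serpinb2, Serpina3g and Serpina3k had few reads with EtOH (lowest tumors at 0, 0.340 and 0.243 CPM). The limit of the filter therefore holds for that count of 4 too.

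**Figure D1:**
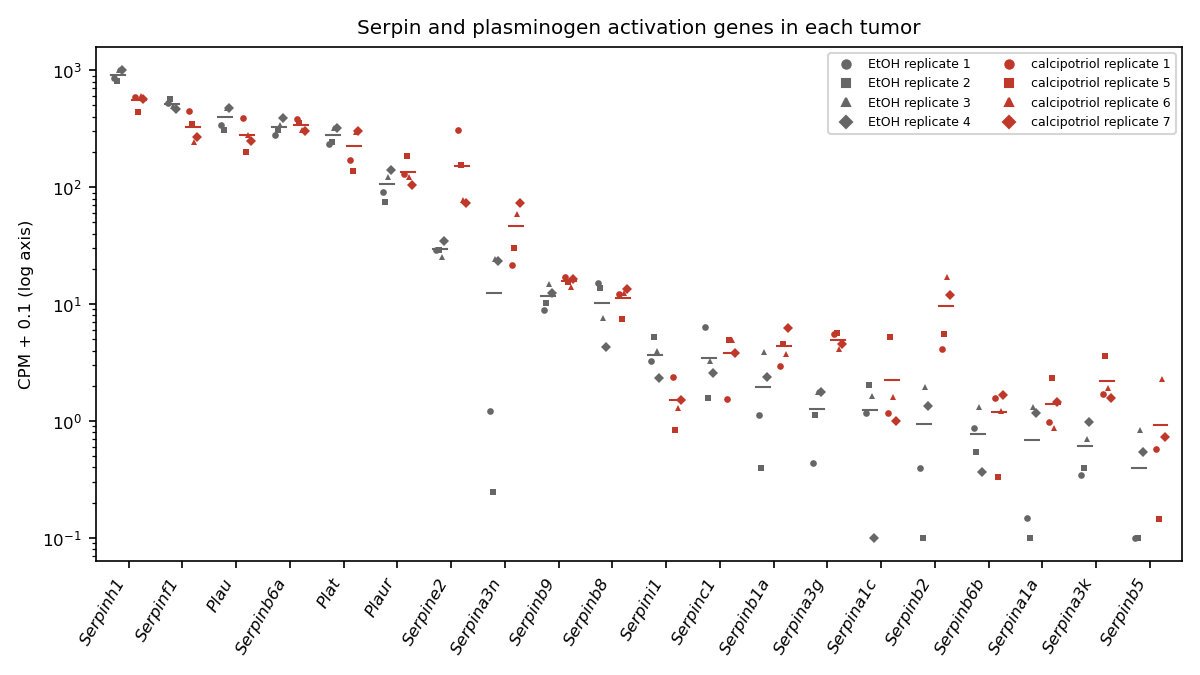
Level of each of the 20 tested members reported here in the 8 tumors, as CPM + 0.1 on a log axis, with EtOH in gray, calcipotriol in red, a symbol for each replicate and a line at the mean of a group. The members span from Serpinh1, at 443 to 998 CPM, to Serpinb5, at 0 to 2.16 CPM, and the red points of Serpine2 all lie above its gray points.

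Serpine2 (ENSMUSG00000026249, chromosome 1, 79794197 to 79861180, reverse strand) encodes protease nexin-1, a secreted inhibitor of thrombin, urokinase and tissue-type activator that acts on or near the cell surface. It was at 28.7, 28.7, 25.3 and 34.7 CPM in EtOH replicates 1 to 4 and at 306, 155, 77.3 and 73.2 CPM in calcipotriol replicates 1, 5, 6 and 7. The EtOH-treated tumors lay close together, while the calcipotriol-treated tumors were spread over a wide range that began above all of them. The means were 29.4 ± 3.89 CPM with EtOH against 153 ± 109 CPM with calcipotriol (SD, n = 4 each), a 5.21-fold difference. On the log2 scale the change was 2.38 (SE 0.42, edgeR adjusted p = 0.0179). Without calcipotriol replicate 1, the highest tumor, it was 1.80 (edgeR adjusted p = 0.00385). Without EtOH replicate 1, 2 or 3 the log2 fold change stayed between 2.32 and 2.37, and the adjusted p was 0.0554, 0.0568 and 0.0548. Without EtOH replicates 1 and 2 the adjusted p was 0.0867, and without EtOH replicates 3 and 4 it was 0.0508.

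Serpinh1 (ENSMUSG00000070436, chromosome 7, 99345376 to 99353239, reverse strand) encodes HSP47, which binds procollagen in the endoplasmic reticulum and is needed for its folding. It was the most abundant member per length of exon in both groups, at 375 CPM per kilobase with EtOH and 227 CPM per kilobase with calcipotriol. EtOH replicates 1 to 4 had 866, 806, 998 and 998 CPM, and calcipotriol replicates 1, 5, 6 and 7 had 593, 443, 607 and 572 CPM. The groups did not overlap, and the lowest tumor was calcipotriol replicate 5. Serpinh1 fell by 0.73 on the log2 scale (SE 0.15, edgeR adjusted p = 0.0309), with means of 917 ± 96.7 CPM with EtOH against 554 ± 75.4 CPM with calcipotriol (SD, n = 4 each). When each tumor was left out in turn, its log2 fold change lay between -0.78 and -0.63, but the adjusted p was under 0.05 in only 1 of the 8 fits, the one without calcipotriol replicate 1. In bulk tumor RNA, fewer cells of a type and less RNA per cell cannot be told apart. The summed level of 6 fibroblast markers (Col1a1, Col1a2, Col3a1, Pdgfra, Dcn and Lum) was 4792 to 5360 CPM with EtOH and 3562 to 6337 CPM with calcipotriol. None of the 6 passed the thresholds. Col3a1, the most abundant of them, had a log2 fold change of -0.52, and the other 5 had values from 0.04 (Col1a1) to 1.23 (Dcn). The narrow range of the sum with EtOH hides a split between tumors. Col1a1 was at 303 and 271 CPM in EtOH replicates 1 and 2 and at 1155 and 1040 CPM in EtOH replicates 3 and 4. The 4 epithelial markers summed to 1005 to 1322 CPM with EtOH and, without overlap, to 590 to 889 CPM with calcipotriol. Of these, Krt18 had a log2 fold change of -0.93 (edgeR adjusted p = 0.0162) and Krt8 one of -0.69 (edgeR adjusted p = 0.0966), while Cdh1 and Epcam were at 0.45 and 2.62 (edgeR adjusted p = 0.634 and 0.328). The part of either cell type in the level of Serpinh1 was not tested.

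The promoters of these genes are shown because they are the 2 members past the adjusted p, with Serpinb2 added as the tested member with the largest fitted fold change. RefSeq gives Serpinb2 a pair of overlapping windows, of which the upstream one is printed. Each line gives the 250 bases before the gene's start from RefSeq (GRCm38.p6), 5′ to 3′ on the gene's own strand. Capitals mark matches, on either strand, to AP-1 (TGANTCA), the vitamin D receptor half-sites AGGTCA and AGTTCA, the direct repeat of such half-sites (AGNTCA, in this search, with a spacer of 3 bases), the heat shock element (GAANNTTC), STAT (TTCNNNGAA), STAT6 (TTC and GAA with 4 bases between them), the TATA box (TATAAA) and SP1 (GGGCGG).
Serpine2 (chr1:79858666-79858915, reverse strand): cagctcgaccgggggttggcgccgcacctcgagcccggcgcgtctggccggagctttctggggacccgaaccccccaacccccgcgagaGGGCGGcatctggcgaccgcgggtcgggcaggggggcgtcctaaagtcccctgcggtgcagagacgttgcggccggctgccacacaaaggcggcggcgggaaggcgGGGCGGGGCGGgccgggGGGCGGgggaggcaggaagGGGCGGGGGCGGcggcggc
Serpinh1 (chr7:99353240-99353489, reverse strand): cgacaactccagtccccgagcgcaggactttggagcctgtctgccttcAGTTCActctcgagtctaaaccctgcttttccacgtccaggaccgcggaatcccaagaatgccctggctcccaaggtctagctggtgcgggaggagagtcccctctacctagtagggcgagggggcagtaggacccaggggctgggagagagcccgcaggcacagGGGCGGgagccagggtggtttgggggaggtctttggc
Serpinb2 (chr1:107511173-107511422, forward strand): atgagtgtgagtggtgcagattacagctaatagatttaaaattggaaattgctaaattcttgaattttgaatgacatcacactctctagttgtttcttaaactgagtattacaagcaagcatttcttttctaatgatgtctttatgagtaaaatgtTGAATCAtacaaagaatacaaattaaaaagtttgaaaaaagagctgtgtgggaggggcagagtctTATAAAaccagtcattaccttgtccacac
The Serpine2 window, of which 78.8% is G or C, held 6 matches to GGGCGG, some of them overlapping, and no match to the other motifs. Of all 32851 promoter windows of this length, 32.7% held GGGCGG. The Serpinh1 window held GGGCGG once and AGTTCA once, at 202 to 197 bases before the start, a hexamer found in 11.8% of all windows. The printed Serpinb2 window held TGANTCA as TGAATCA at 94 to 88 bases before the start (6.75% of all windows) and TATAAA at 29 to 24 bases before it (12.4% of all windows). AGGTCA was in 14.0% of all windows, the direct repeat in 0.0517%, the heat shock element in 6.69%, STAT in 7.02% and STAT6 in 5.85%, and none of these was in the 3 windows shown. The other Serpinb2 window, chr1:107511260-107511509, also held TGAATCA and TATAAA and, besides, a STAT match at 77 to 69 bases before its start. A match is a description of the letters and not a site of binding. The RefSeq start of Serpine2 lies inside the gene as GENCODE M21 draws it, so this gene too may have other starts.

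Plau and Plat, the plasminogen activators, were abundant in every tumor. Plau (chromosome 14, 20836660 to 20843385, forward strand) was at 343, 311, 472 and 474 CPM in EtOH replicates 1 to 4 and at 392, 200, 282 and 249 CPM in calcipotriol replicates 1, 5, 6 and 7. Calcipotriol replicate 1 lay within the range of the EtOH-treated tumors, while the other calcipotriol-treated tumors lay below it. Plau had a log2 fold change of -0.51 (SE 0.22, edgeR adjusted p = 0.251). Plat (chromosome 8, 22757727 to 22782844, forward strand) was at 236, 241, 319 and 319 CPM with EtOH and at 170, 137, 297 and 302 CPM with calcipotriol. The groups overlapped, with calcipotriol replicates 1 and 5 below all EtOH-treated tumors and replicates 6 and 7 among them. This gave a log2 fold change of -0.30 (SE 0.25, edgeR adjusted p = 0.577). Without EtOH replicates 1 and 2 the log2 fold changes of Plau and Plat were -0.75 and -0.49, and without EtOH replicates 3 and 4 they were -0.22 and -0.07, none past the adjusted p.

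The receptor Plaur (chromosome 7, 24462484 to 24475968, forward strand), which holds urokinase at the cell surface through a lipid anchor, was at 90.1, 75.3, 121 and 141 CPM with EtOH and at 128, 185, 123 and 104 CPM with calcipotriol. These ranges overlapped (log2 fold change 0.34, SE 0.23, edgeR adjusted p = 0.465). Plg, the substrate of the activators, had too few reads for the test. It had 6 counts in EtOH replicate 4 and 0 in the other EtOH-treated tumors, and 0, 10, 1 and 5 counts in calcipotriol replicates 1, 5, 6 and 7. Plg was thus near the floor of 3 counts per tumor, which is 0.119 to 0.146 CPM.

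Ratios between genes of a tumor do not depend on how the library is scaled, and they are given as a description with no test. The count of Plau over that of its receptor Plaur was 3.81, 4.14, 3.90 and 3.36 in EtOH replicates 1 to 4 and 3.05, 1.08, 2.29 and 2.39 in calcipotriol replicates 1, 5, 6 and 7. The groups did not overlap on this ratio, although they overlapped on the level of either gene, and calcipotriol replicate 5 was the lowest. The ratios of the activators to Serpine2 were added after the rise of Serpine2 had been seen. That of Plau was 11.9, 10.9, 18.7 and 13.7 with EtOH and 1.28, 1.28, 3.64 and 3.41 with calcipotriol, and that of Plat was 8.19, 8.41, 12.6 and 9.20 with EtOH and 0.555, 0.880, 3.83 and 4.13 with calcipotriol. In both, the calcipotriol-treated tumors fell into pairs, with replicates 1 and 5 lower than replicates 6 and 7, and all of them lay below the EtOH-treated tumors. Serpine2 alone separated the groups and was highest in replicates 1 and 5, so these ratios largely restate its level. Plau over Serpinb2, which also separated the groups alone, was 254 to 1175 with EtOH and 16.6 to 97.6 with calcipotriol. EtOH replicate 2, with 0 counts of Serpinb2, gave no value. These are ratios of read counts between genes of different length, so a value above 1 does not say which transcript had more copies.

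**Figure D2:**
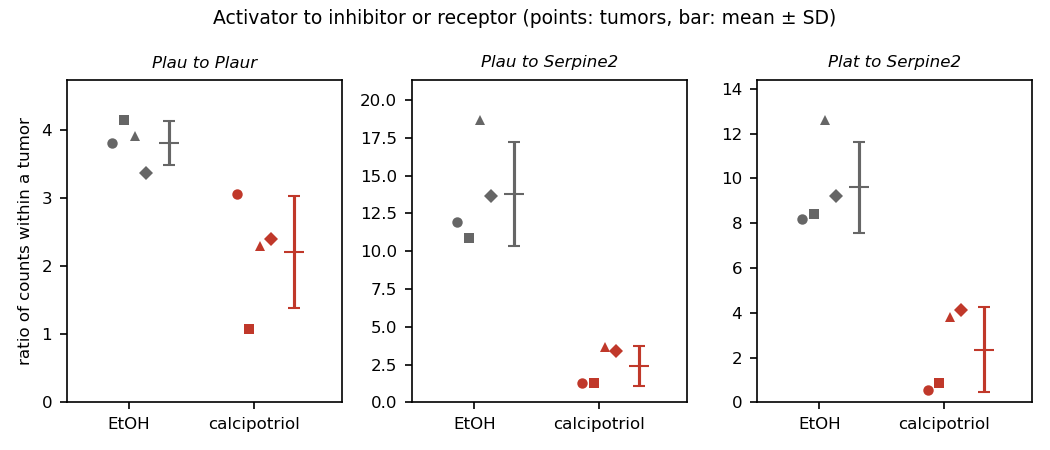
Counts of Plau divided by those of Plaur, and of Plau and Plat divided by those of Serpine2, within each tumor (points, 1 symbol for each replicate) with the mean and SD of each group beside them and axes that start at 0. The EtOH-treated tumors lie between 10.9 and 18.7 for Plau to Serpine2, and the calcipotriol-treated tumors between 1.28 and 3.64.

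Serpinb2 (ENSMUSG00000062345, chromosome 1, 107511423 to 107535478, forward strand) encodes PAI-2, an inhibitor of urokinase that stays largely inside the cell and is made by monocytes, macrophages and keratinocytes. It was at 0.292, 0, 1.86 and 1.23 CPM with EtOH and at 4.01, 5.44, 17.0 and 11.9 CPM with calcipotriol. All calcipotriol-treated tumors were higher, and replicates 6 and 7 were the highest. Serpinb2 had a log2 fold change of 3.47 (SE 0.89), with an adjusted p of 0.0679 from edgeR's quasi-likelihood test. The adjusted p was 0.000544 from DESeq2, 0.140 from limma-voom and 0.0142 when edgeR kept all low counts. With single tumors left out, edgeR's adjusted p was 0.0347 without calcipotriol replicate 1 and 0.0736 to 0.210 in the other 7 fits. Without EtOH replicates 3 and 4 the log2 fold change was 5.98 (edgeR adjusted p = 0.0168), and without EtOH replicates 1 and 2 it was 2.62 (edgeR adjusted p = 0.0821). Markers of the cell types named moved in unlike ways. The 8 macrophage markers summed to 3076 to 4069 CPM with EtOH and to 1287 to 2235 CPM with calcipotriol, with 3 called lower and 1, Cd163, called higher. The 9 squamous or basal epithelial markers summed to 12.9 to 16.1 CPM with EtOH and to 9.22 to 68.5 CPM with calcipotriol. Among the latter, Krt14 was at 0 to 1.50 CPM with EtOH and at 1.59, 10.2, 46.3 and 43.4 CPM in calcipotriol replicates 1, 5, 6 and 7, and Krt14 and Trp63 were called higher. Of the other tested genes of that list, Lor, Krt5 and Krt10 had log2 fold changes of -1.01, -0.27 and 0.19 (edgeR adjusted p = 0.246, 0.927 and 0.900). Krt6a, Krt1, Ivl and Sprr1b were at 0 in every EtOH-treated tumor and also at 0 in 1 or more calcipotriol-treated tumors. The part of either cell type in the level of Serpinb2 was not tested.

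None of the other 6 tested clade B serpins, which mostly act inside cells, passed the thresholds. Serpinb6a, an inhibitor of cathepsin G, was the most abundant of them, at 329 ± 45.9 CPM with EtOH against 337 ± 37.8 CPM with calcipotriol (SD, n = 4 each). This gave a log2 fold change of 0.03 (SE 0.14, edgeR adjusted p = 0.929). Serpinb9, which inhibits granzyme B and protects cells from it, was at 8.76 to 14.9 CPM with EtOH and at 14.0 to 16.8 CPM with calcipotriol (log2 fold change 0.44, edgeR adjusted p = 0.274). Serpinb8 was at 10.1 ± 5.08 CPM with EtOH against 11.3 ± 2.67 CPM with calcipotriol (SD, n = 4 each) (adjusted p = 0.859). Serpinb1a, an inhibitor of neutrophil elastase, Serpinb5 (maspin) and Serpinb6b had log2 fold changes of 1.21, 1.46 and 0.69, with adjusted p of 0.342, 0.604 and 0.679 from the same test. The lowest levels of Serpinb1a and Serpinb5 lay in EtOH replicates 1 and 2, at 1.02 and 0.292 CPM for Serpinb1a and at 0 CPM in both tumors for Serpinb5. Calcipotriol replicate 5 was also low for Serpinb5, at 0.0457 CPM, and calcipotriol replicate 6 was the highest, at 2.16 CPM. Without EtOH replicates 3 and 4, Serpinb1a had a log2 fold change of 2.70 (edgeR adjusted p = 0.0477), and without EtOH replicates 1 and 2 it had one of 0.50 (edgeR adjusted p = 0.574). Serpinb5 had 7.21 and 0.50 in these fits and 0.38 without calcipotriol replicate 6 (edgeR adjusted p = 0.125, 0.865 and 0.943).

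The clade A serpins of chromosome 12 (103614786 to 104414329) are secreted inhibitors related to α1-antitrypsin and α1-antichymotrypsin, many of them made in liver. All but Serpina7, on chromosome X, of the 24 members of this clade lie in that interval. The tested ones were Serpina3n, Serpina3g, Serpina3k, Serpina1a and Serpina1c, and none passed the thresholds with edgeR. Serpina3n, an acute-phase inhibitor of proteases such as cathepsin G and granzyme B, was the most abundant of them. It was at 1.12, 0.146, 24.3 and 23.4 CPM in EtOH replicates 1 to 4, so that EtOH replicates 1 and 2 were far below EtOH replicates 3 and 4. The calcipotriol-treated tumors had 21.3, 29.9, 59.2 and 73.6 CPM, of which replicate 1 lay below EtOH replicates 3 and 4. Serpina3n had a log2 fold change of 1.90 (SE 0.99, edgeR adjusted p = 0.339). Against EtOH replicates 1 and 2 alone it was 6.17 (edgeR adjusted p = 0.00647), and against EtOH replicates 3 and 4 alone it was 0.95 (edgeR adjusted p = 0.284).

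Serpina3g, a serpin of activated lymphoid and myeloid cells that inhibits cathepsins, was at 0.340, 1.02, 1.66 and 1.68 CPM with EtOH and at 5.40, 5.57, 3.99 and 4.41 CPM with calcipotriol. The groups did not overlap, and the calcipotriol-treated tumors lay close together. Serpina3g had a log2 fold change of 2.03 (SE 0.49), and the adjusted p was 0.0568 from edgeR, 0.00125 from DESeq2, 0.0502 from limma-voom and 0.0416 when edgeR kept all low counts. With single tumors left out it was 0.0603 to 0.140 from edgeR, and it was 0.0246 without EtOH replicates 3 and 4 (log2 fold change 2.82) and 0.0814 without EtOH replicates 1 and 2 (log2 fold change 1.54). Serpina3k was at 0.243 to 0.882 CPM with EtOH and at 1.48 to 3.52 CPM with calcipotriol (log2 fold change 2.04, SE 0.63, adjusted p = 0.120 from edgeR, 0.0229 from DESeq2, 0.142 from limma-voom and 0.103 to 0.330 from edgeR with single tumors left out). The sums of 2 marker lists did not overlap between the groups, though no gene of either list was called. The 6 interferon-stimulated genes (Irf1, Gbp2, Ifit1, Ifit3, Isg15 and Cxcl10) summed to 93.1 to 152 CPM with EtOH and to 176 to 660 CPM with calcipotriol, with the highest value in calcipotriol replicate 1. The 8 T and NK cell markers summed to 1.58 to 2.48 CPM with EtOH and to 24.1, 6.17, 5.96 and 6.02 CPM in calcipotriol replicates 1, 5, 6 and 7. Of the 8, 4 were tested, and Ncr1 was at 0 in all tumors but calcipotriol replicate 7. Their part in the levels of the Serpina3 genes was not tested.

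Serpina1a and Serpina1c, copies of the α1-antitrypsin gene, were at low levels, with means of 0.581 and 1.14 CPM with EtOH and 1.31 and 2.14 CPM with calcipotriol (adjusted p = 0.617 and 0.679 from edgeR). Without EtOH replicates 3 and 4, Serpina1a had a log2 fold change of 5.45 (edgeR adjusted p = 0.0490), and without EtOH replicates 1 and 2 it had one of 0.20 (edgeR adjusted p = 0.908). For Serpina1c it was 0.91 in all tumors and 0.02 without calcipotriol replicate 5. Copies of the mouse α1-antitrypsin genes are nearly identical, as are several Serpina3, Serpinb6 and Serpinb9 genes, so the share of reads that the counting gave to each copy is uncertain. The copies were therefore also summed before the fit. Serpina1a to Serpina1e together were at 1.26, 2.39, 2.96 and 1.81 CPM with EtOH and at 2.86, 14.7, 3.56 and 4.37 CPM with calcipotriol, of which replicate 5 was the highest. Their log2 fold change was 1.59 (SE 0.55, edgeR adjusted p = 0.157). The 10 Serpina3 genes together were at 14.6 ± 15.1 CPM with EtOH against 55.9 ± 25.0 CPM with calcipotriol (SD, n = 4 each) (log2 fold change 1.93, edgeR adjusted p = 0.248). By tumor they were at 1.75, 1.46, 27.0 and 28.4 CPM with EtOH and at 29.6, 41.5, 67.3 and 85.0 CPM with calcipotriol. Serpina3n, with means of 12.2 and 46.0 CPM, made up most of both means, so this sum largely repeats that gene. The summed Serpinb1, Serpinb6 and Serpinb9 genes had log2 fold changes of 1.21, 0.04 and 0.46 (adjusted p = 0.342, 0.926 and 0.255), and Serpinb3a to Serpinb3d had 0 counts in every tumor.

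Albumin (Alb), the main liver plasma protein, was called higher with calcipotriol at a low level. The 8 hepatocyte markers summed to 4.72 to 10.1 CPM with EtOH and to 11.4 to 28.1 CPM with calcipotriol, with Alb the 1 gene called of the 7 tested. The other 6 tested markers overlapped between the groups, with log2 fold changes from -0.09 (Fgb) to 1.44 (Ahsg). Alb was at 2.77, 2.73, 4.90 and 6.62 CPM with EtOH and at 9.34, 18.4, 10.3 and 14.6 CPM with calcipotriol. Calcipotriol replicate 5 had the highest sum of these markers as well as the highest sum of the Serpina1 genes. The part of liver transcripts in the Serpina1 counts was not tested.

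**Figure D3:**
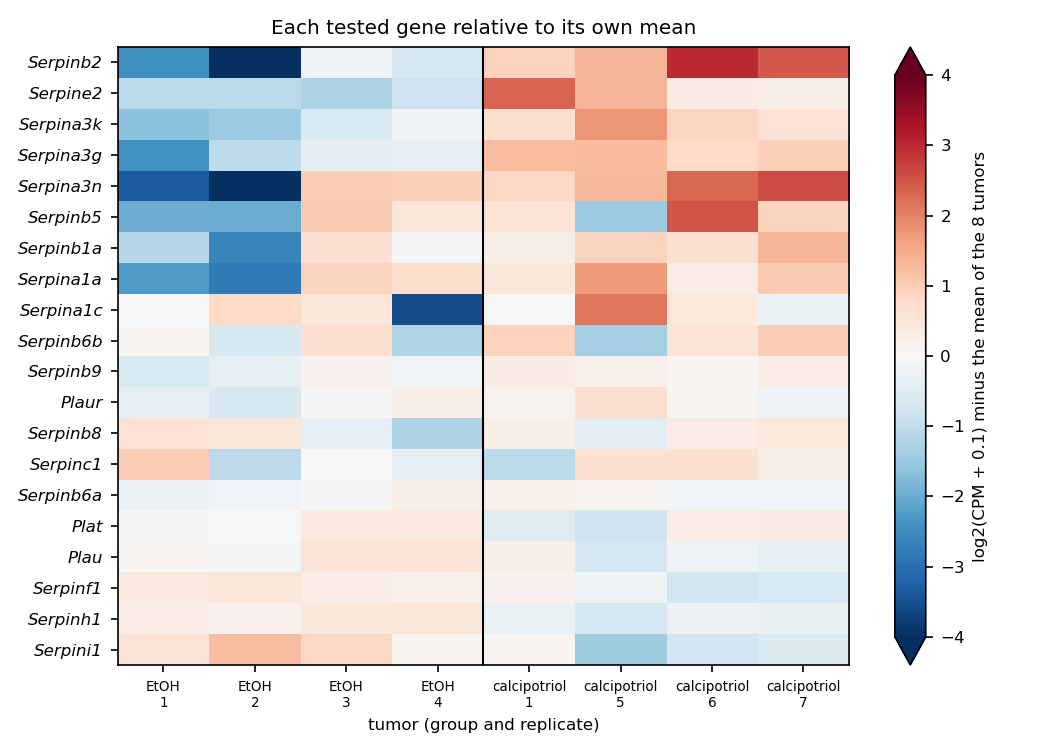
Level of each of the 20 tested members in each tumor as log2(CPM + 0.1) minus the mean of the 8 tumors, with genes in order of log2 fold change, tumors in columns and a line between the groups. Serpinb2, Serpina3n, Serpinb5 and Serpina1a are lowest in EtOH replicates 1 and 2, and Serpine2 is highest in calcipotriol replicate 1.

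Among the remaining clades, Serpinf1 (chromosome 11, 75409769 to 75422701, reverse strand), which encodes an inhibitor of angiogenesis with no known protease target, was at 529, 570, 500 and 469 CPM with EtOH and at 451, 349, 242 and 267 CPM with calcipotriol. Every calcipotriol-treated tumor was lower, with replicate 1 just under the EtOH-treated tumors. Serpinf1 had a log2 fold change of -0.66 (SE 0.19, edgeR adjusted p = 0.101). Without calcipotriol replicate 1 it was -0.85 (edgeR adjusted p = 0.0139), and DESeq2 on all tumors gave an adjusted p of 0.0168. With any other single tumor left out, edgeR's adjusted p was 0.129 to 0.249, and limma-voom gave 0.0739. Serpini1 (neuroserpin), an inhibitor of tissue-type activator known from the nervous system, was at 2.25 to 5.11 CPM with EtOH and at 0.731 to 2.26 CPM with calcipotriol. This gave a log2 fold change of -1.35 (SE 0.47, edgeR adjusted p = 0.156). Serpinc1, the thrombin inhibitor antithrombin, was at 3.35 ± 2.10 CPM with EtOH against 3.70 ± 1.60 CPM with calcipotriol (SD, n = 4 each) (edgeR adjusted p = 0.919).

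**Figure D4:**
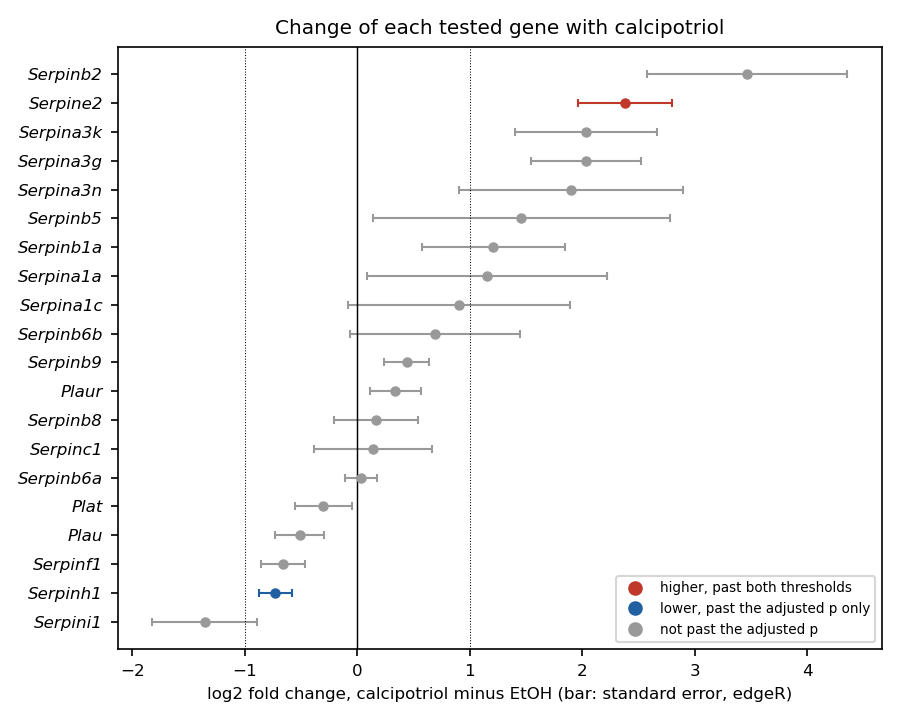
Log2 fold change of each of the 20 tested members reported here, calcipotriol minus EtOH, with its SE from edgeR's quasi-likelihood test and dotted lines at -1 and 1. Serpine2 (red) is past both thresholds at 2.38, Serpinh1 (blue) passes the adjusted p alone at -0.73, and Serpinb2 has the largest value, 3.47, with a SE of 0.89.

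The other 43 members were not tested for lack of reads. Of these, 22 had 0 counts in all 8 tumors, which allows up to 3 counts in each. They were Serpina11, Serpina12, Serpina16, Serpina1f, Serpina3a, Serpina3b, Serpina5, Serpinb13, Serpinb1b, Serpinb1c, Serpinb3a to Serpinb3d, Serpinb6e, Serpinb9c to Serpinb9g, Serpine3 and Serpini2. A further 5 (Serpina3j, Serpina6, Serpina7, Serpina9 and Serpinb6c) had at most 3 counts in any tumor. The remaining 16 had over 3 counts in at least 1 tumor and at most 70. Of these 16, 13 had more counts over the calcipotriol-treated tumors and 3 (Serpinb11, Serpind1 and Serpinb12) over the EtOH-treated tumors. The same share over all untested genes was not computed, and several of the 13 are Serpina1 and Serpina3 copies that can share reads. The count is therefore not a result about the members.

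Serpina1e, an α1-antitrypsin copy, was without counts in the EtOH group and had 9, 70, 12 and 15 counts in calcipotriol replicates 1, 5, 6 and 7. It was at least 8.74-fold higher against a floor of 3 counts per library, and at least 3.84-fold higher without calcipotriol replicate 5, which held most of the counts. In the fit with no filter on low counts it was the 1 member of the 43 to pass both thresholds (edgeR adjusted p = 0.0174). Neither the bounds nor that fit cover the uncertain split of reads between the copies. Summed before the fit, Serpina1a to Serpina1e had a log2 fold change of 1.59 (edgeR adjusted p = 0.157). Serpina1b had 4 counts in EtOH replicate 2 and 0 in the other EtOH-treated tumors, and 6, 45, 14 and 25 counts with calcipotriol.

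Serpina3f had 1 count in EtOH replicate 1, none in the other EtOH-treated tumors and 23, 5, 12 and 13 counts with calcipotriol, a ratio of 51.3 (95% exact interval 8.81 to 2063). Serpinb7, a serpin of the outer layers of skin, had 1 count over the EtOH-treated tumors and 0, 18, 18 and 38 counts with calcipotriol, a ratio of 71.6 (interval 12.5 to 2865). These intervals cover counting error only and not the spread between tumors. In calcipotriol replicate 1 Serpinb7 had no counts, and the part of any cell type in its counts was not tested.

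Serpina1d, Serpina3i and Serpina3m had counts in both groups and overlapped, with 3 to 17, 0 to 35 and 0 to 12 counts with EtOH, against 1 to 46, 6 to 38 and 0 to 43 counts with calcipotriol. Serpina3c had 0, 0, 7 and 9 counts with EtOH, against 3, 34, 17 and 37 with calcipotriol. Serpinf2, the inhibitor of plasmin, was without counts in the EtOH group and had 3, 6, 1 and 0 counts with calcipotriol, so it was at or near the floor in both groups. Serpind1 (heparin cofactor II) had 0 to 17 counts with EtOH and 0 to 8 with calcipotriol. Serpinb9b had 0 counts with EtOH, against 12, 0, 4 and 4 with calcipotriol, and Serpina10, Serpinb6d, Serpinb11 and Serpinb12 had at most 5, 4, 18 and 10 counts in any tumor.

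**Figure D5:**
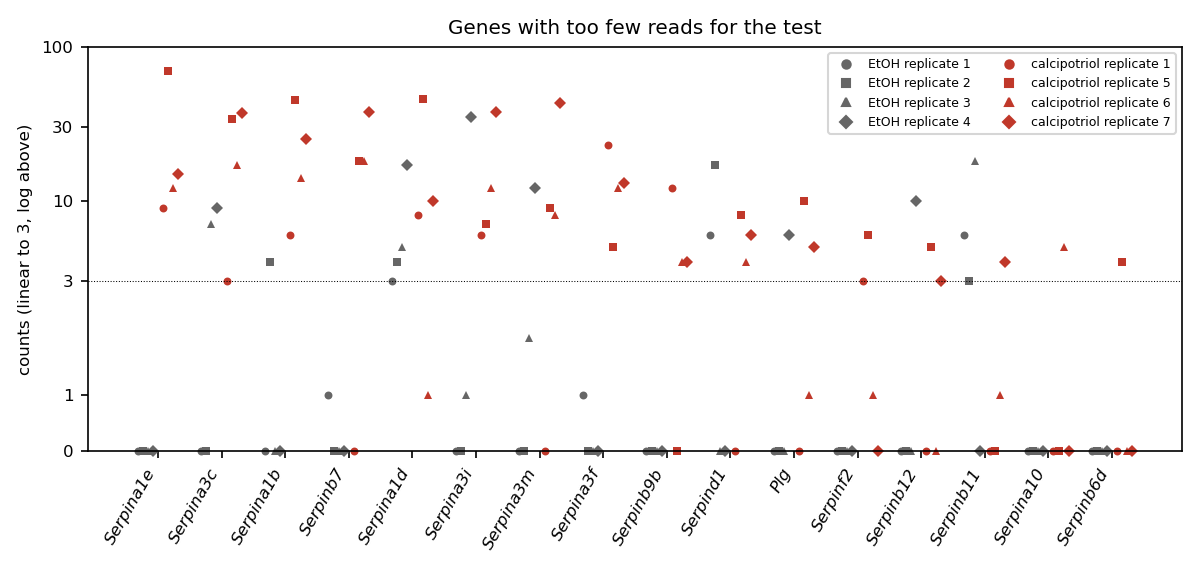
Counts in each tumor of the 16 members with too few reads for the test and over 3 counts in at least 1 tumor, with EtOH in gray and calcipotriol in red (axis linear up to 3 counts, dotted line, and logarithmic above). Serpina1e reaches 70 counts with calcipotriol and has 0 in each EtOH-treated tumor.

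A list of 69 other genes of the pathway, chosen with earlier results of these data known, held receptors and clearance factors, coagulation factors, proteases that serpins bind and other inhibitors. Of these, 52 were tested, and 28 had a log2 fold change above 0 and 24 below 0 (median 0.07). Past both thresholds were 2 higher and 1 lower gene, each from the group of other inhibitors. Of all genes tested, 1.07% were higher and 0.948% were lower past both thresholds. Because of how the list was chosen, neither this count nor its place among the inhibitors is a result about the pathway. Slpi, a secreted inhibitor of neutrophil elastase, was at 25.3, 14.5, 29.7 and 41.6 CPM with EtOH and at 107, 324, 189 and 138 CPM with calcipotriol (log2 fold change 2.77, SE 0.39, edgeR adjusted p = 0.00815). Spint1, a membrane inhibitor of the activators of hepatocyte growth factor, was at 18.5, 19.6, 40.1 and 45.4 CPM with EtOH and at 14.2, 5.48, 7.74 and 4.79 CPM with calcipotriol (log2 fold change -1.94, SE 0.41, edgeR adjusted p = 0.0345). Timp1, an inhibitor of matrix metalloproteinases, was the other higher gene (log2 fold change 1.18, edgeR adjusted p = 0.0432). Spint2, the relative of Spint1, is named here after its values were seen. It was at 0 to 2.63 CPM with EtOH and at 5.76 to 19.6 CPM with calcipotriol, with a log2 fold change of 3.31 that did not pass (SE 0.85, edgeR adjusted p = 0.0684).

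None of the 16 tested plasminogen receptors and clearance factors passed the thresholds (median log2 fold change -0.14). Anxa2 and S100a10, which form a plasminogen receptor, had log2 fold changes of 0.03 and -0.05 (adjusted p = 0.939 and 0.889 from edgeR). The clearance receptor Lrp1, which takes up complexes of activators with their inhibitors, had a log2 fold change of -0.24 (edgeR adjusted p = 0.620). None of the 12 tested coagulation genes (median 0.47) and none of the 15 tested proteases (median 0.17) passed either.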

How the data were processed

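RNA-Seq covered 4 EtOH-treated and 4 calcipotriol-treated tumors. The values the authors deposited are expected counts (estimated reads per gene, not scaled between tumors). The submitters' processing notes name STAR 2.5.3, RSEM 1.3.1, DESeq2 1.24.0 and the build GRCm38, without roles. The annotation release is not given in the sources used here. Between 4.20% and 6.22% of values per tumor were not whole, so they were rounded. The table has 0 columns of other samples. Groups and replicate numbers come from the labels. The study calls the tumors of a group biological replicates, and the labels do not say which mouse each came from.

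Symbols and positions come from GENCODE M21, which matched 52133 of 55414 identifiers. Levels between genes are CPM per kilobase of exon, which approximates the effective length. The treatments were contrasted using edgeR 4.0.16 in R 4.3.3 (filterByExpr, TMM, glmQLFit, glmQLFTest) over all 14458 genes kept, with Benjamini-Hochberg adjustment. At this depth 3 counts are 0.119 to 0.146 CPM, and floors cover counting error only, because PCR copies of 1 molecule are read as several. The alternatives used limma 3.58.1 (voom), DESeq2 1.42.0, other filters, unrounded counts, glmTreat and left-out tumors. The scripts were tested on simulated data.

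By rule, values were given for members past the adjusted p, with a mean of at least 10 CPM in a group, in the study's list of differentially expressed genes, or untested with over 3 counts in a tumor, for partners past the adjusted p and for markers of lists whose sums did not overlap; other members were named with ranges. Serpinb2, Serpina3g, Serpina3k, Spint2, Anxa2, S100a10 and Lrp1 were described at more length after their values were seen. The members and lists were chosen with earlier results of these data known. Promoter windows from RefSeq matched 53 of the 64 members; Plat, Plau, Plg, Serpina10, Serpina3k, Serpina3m, Serpina6, Serpina9, Serpinb13 and Serpinb1a were among those without one. The values of 1 tested member and of 1 gene of a marker list are not reported here.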

Additional observations from a re-analysis of the deposited data

Results flagged for a closer look

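By Dixon's criterion (95%), 1 tumor lay apart from the 3 others of its treatment in 2 of 47 groups examined (20 members and the ratios, in each treatment), and chance alone gives about 1 in 20, or 2.35. Calcipotriol replicate 5 had 3.52 CPM of Serpina3k, against 1.48 to 1.83 CPM in the others, and 5.12 CPM of Serpina1c, against 0.890 to 1.49 CPM.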

How the results depend on the processing

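With edgeR, 1 member passed both thresholds and 2 passed the adjusted p alone. Without a filter on low counts these were 4 and 6 (458 of all genes past both thresholds, against 292), and with the DESeq2 test 4 and 7 (644 of all genes). glmTreat called 0 members (4 at an unadjusted p under 0.05) and 22 genes in all. Leaving out pairs was added after the data had been seen. Without EtOH replicates 1 and 2 edgeR called 0 members by either criterion (13 at an unadjusted p under 0.05) and 177 genes, and without EtOH replicates 3 and 4 it called 6 members by either criterion and 605 genes. With each tumor left out in turn, 0 to 4 members passed both thresholds, 0 to 6 passed the adjusted p, and 110 to 642 genes passed both. The lowest member counts came without EtOH replicate 1, 2 or 3, and the highest without calcipotriol replicate 1. Of the 4 members past both thresholds in that last fit, Serpine2 and Serpinb2 were tested with all tumors. The others had not passed the filter on low counts with all tumors, and they are not named here. Of the pathway partners, 3 passed both thresholds, against 6 with no filter, 9 with DESeq2, 7 without EtOH replicates 3 and 4, and 1 to 6 with single tumors left out. DESeq2's size factors and unrounded counts gave the same counts of members. limma-voom and a minimum of 10 counts in every tumor gave 1 and 3 members.

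Of the 21 tested members, 18 kept their direction in every alternative. The exceptions were Serpinb8 (log2 fold change -0.34 without EtOH replicates 3 and 4, -0.092 to 0.42 with single tumors left out), Serpinc1 (-0.075 without EtOH replicates 3 and 4, and -0.11 to 0.65) and Serpinb6a (-0.11 without EtOH replicates 1 and 2, and -0.032 to 0.12). The causes were not tested. No paired analysis was made, because the labels give no pairing of tumors between the groups. Members at a few counts per tumor are limited by depth, and their fold changes depend on the filter.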

Other observations

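Over the 62 promoter windows of 53 members, TGANTCA was found in 12 (19.4%), against 6.75% of all 32851 windows of 250 bases. The members with this match were Plaur, Serpinb2, Serpinb5, Serpinb7, Serpinb8, Serpinb11, Serpinb12 and the α1-antitrypsin copies Serpina1a to Serpina1d. Of these, Serpinb11 and Serpinb12 had more counts over the EtOH-treated tumors. TATAAA was found in 27.4% of the members' windows, against 12.4% of all windows, and GGGCGG in 12.9%, against 32.7%. AGGTCA was found in 30.6%, against 14.0%, and of the members holding it Serpinf1 alone was tested. Copies of a gene share much of their promoter sequence, so the windows are not independent of each other, and none of these shares was tested.

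The members lie in few places. Of the 64, 23 lie on chromosome 12, 15 on chromosome 13 and 13 on chromosome 1. Of the 23 on chromosome 12, which include the Serpina1 and Serpina3 copies, 5 were tested, and all 5 had a positive log2 fold change that did not pass the adjusted p in edgeR. Of the 15 on chromosome 13, the Serpinb1, Serpinb6 and Serpinb9 genes, 4 were tested, and all 4 had a positive log2 fold change that did not pass. That of Serpinb6a was 0.03 and turned negative in some alternatives. Of all genes tested, 52.1% had a log2 fold change above 0. A gene with few reads can enter the test through the group in which it is higher. The signs of the tested members are therefore not a result about either chromosome.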
